A study of Mus musculus with 2 samples.

Results

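The respiratory chain genes were taken as all genes of the antibody library's matrix whose symbol starts with mt-, Nduf, Uqcr, Cox4 to Cox8 or Atp5, or is Sdha, Sdhb, Sdhc or Sdhd. The rule used names only and found 104 of 18685 genes. Of these, 13 are encoded in mitochondrial DNA and 91 in the nucleus. The nuclear members were grouped as 7 core, 30 supernumerary and 8 assembly genes of complex I, 4 genes of complex II, 8 of complex III, 17 of complex IV and 17 of complex V. With the assembly factors, the paralog Ndufa4l2 and the supercomplex factor Cox7a2l left out, 81 nuclear genes remain that encode structural subunits. Several genes of this family have near-identical pseudogene copies, Ndufb1-ps is itself listed under a pseudogene symbol, and how shared reads were assigned is not given in the sources used here, so values of single genes are uncertain to that extent.

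The cells came from tumour grafts, labelled percutaneous, of Hep1-6, a mouse hepatoma line, in wild-type male C57BL/6 mice of 6 to 8 weeks on a normal diet under pathogen-free housing. Mice were injected intraperitoneally with control IgG or with an antibody against SIGLEC15, a sialic acid-binding receptor studied as an immune checkpoint. Each group is given as 3 mice but as 1 library, and no source used here says how the mice were combined. Tumours were digested, and cells enriched with anti-CD45 beads were mixed at equal parts with unsorted cells, so the share of a cell type in a library is partly set by that mixing. With 1 library per group no difference has a replicate check and no test was possible: all intervals are 95% intervals for counting error only. How the deposited clusters were drawn is not stated, and since member genes can have shaped them, differences between clusters are given as descriptions.

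The respiratory chain transfers electrons from NADH (complex I) and succinate (complex II) through complex III to oxygen at complex IV, and the proton gradient built on the way drives ATP synthase, complex V. Complexes I, III, IV and V are mosaics of subunits from both genomes, while complex II is encoded wholly in the nucleus. Mitochondrial DNA is transcribed as long polycistronic RNAs that are cut into single messages, whereas each nuclear subunit gene has a promoter of its own. Nuclear respiratory factor 1 (NRF1), GA-binding protein (GABP) and YY1 are transcription factors known to act on many of the nuclear promoters. Neutrophils are known to rely mainly on glycolysis and to hold few mitochondria, and hypoxic tumour cells are known to lower respiration.

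The promoters of 4 nuclear members are shown because the values below turn on these genes. Cox5b, which encodes a complex IV subunit facing the matrix, is the only member measured in both libraries. Atp5k and Ndufb7, subunits of complexes V and I, were higher in several immune classes than in tumour cells, and Atp5l, a complex V subunit, was among the few members higher in neutrophil-like cells. Each line gives the 250 bases before the gene's start, from RefSeq on GRCm38.p6, and capitals mark a match to the palindromic NRF1 motif or to CCGGAAG (GABP) on either strand.
Cox5b, chr1:36691237-36691486, plus strand: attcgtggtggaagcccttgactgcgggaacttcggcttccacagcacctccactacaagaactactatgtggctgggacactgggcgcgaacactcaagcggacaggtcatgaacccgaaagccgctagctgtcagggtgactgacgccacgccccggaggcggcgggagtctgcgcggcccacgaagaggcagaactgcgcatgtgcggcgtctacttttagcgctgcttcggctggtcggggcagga
Atp5k, chr5:108434400-108434649, minus strand: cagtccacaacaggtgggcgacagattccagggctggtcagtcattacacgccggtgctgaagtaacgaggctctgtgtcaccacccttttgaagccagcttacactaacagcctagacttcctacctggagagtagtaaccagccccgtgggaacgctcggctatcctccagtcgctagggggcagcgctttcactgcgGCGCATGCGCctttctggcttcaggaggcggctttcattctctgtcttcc
Ndufb7, chr8:83566508-83566757, plus strand: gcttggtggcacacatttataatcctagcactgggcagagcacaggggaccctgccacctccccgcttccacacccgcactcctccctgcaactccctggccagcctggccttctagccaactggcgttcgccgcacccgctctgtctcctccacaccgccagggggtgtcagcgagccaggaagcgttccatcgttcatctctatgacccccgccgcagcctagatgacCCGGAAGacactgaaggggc
Atp5l, chr9:44920743-44920992, minus strand: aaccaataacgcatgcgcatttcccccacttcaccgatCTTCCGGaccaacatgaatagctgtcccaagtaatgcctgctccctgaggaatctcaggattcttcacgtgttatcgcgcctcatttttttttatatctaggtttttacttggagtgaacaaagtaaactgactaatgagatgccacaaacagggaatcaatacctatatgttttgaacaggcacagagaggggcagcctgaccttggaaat
Of the 91 nuclear members, 75 had an entry in the RefSeq promoter table, 2 of them under another symbol (Atp5f1 as Atp5pb and Ndufb1-ps as Ndufb1). In the table's windows of 250 bases before and 50 after the start, the NRF1 motif was found for 7 of the 75 members, or 9.33%, against 1.07% of all 27025 genes in the table. CCGGAAG was found for 19 members, or 25.3%, against 9.93% of all genes, and the YY1 motif AAGATGG for 12 members, or 16%, against 7.28%. At least 1 of the 3 motifs stood in 45.3% of the member promoters and 17.1% of all. Matches were counted on both strands, the motifs do not contain each other, and a match describes letters only. In the printed stretches the NRF1 match of Atp5k starts 50 bases before the gene's start, the GABP match of Ndufb7 20 bases before it and that of Atp5l 212 bases before it, and Cox5b holds none of these letters.

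The antibody library held 5482 cells in 30 clusters, 74168827 transcript counts (unique molecular identifiers, UMIs) and a median of 13714.5 UMIs per cell. The IgG copy held 5765 cells, of which 5739 had a recoverable depth (85804877 UMIs, median 15733), but only 105 genes, among them 1 member. Both libraries shared 11 cell barcodes. Clusters keep their deposited names: tumour clusters held 8316 to 23020 CPM (UMIs scaled to a total of 1000000) of 5 hepatoma markers, MDSC_1 to MDSC_4 35190 to 155700 CPM of 6 neutrophil markers and 1078 to 1244 CPM of the hepatoma markers, and macrophage clusters 3665 to 10590 CPM of 6 macrophage markers. CD3_T held 2052 CPM of T cell markers and 4170 CPM of natural killer markers, 3716 of them from Gzma alone, with Klrb1c at 230 CPM against at most 2.55 CPM in the CD8_T clusters. MDSC_5 held only 1401 CPM of neutrophil markers, and both clusters were kept out of their classes. The DC cluster held 271 CPM of 6 dendritic markers, less than the 504 CPM in Macrophage_1. Beside them it held 5040 CPM of neutrophil, 2722 CPM of monocyte and 2136 CPM of macrophage markers. Its name is therefore used as a label only. Of the 30 clusters, 26 had at least 50 cells. Median depth was 1047 UMIs in MDSC_1 to MDSC_4 and 20428 in tumour cells, and its part in the differences below was not tested.

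Over all antibody cells the mitochondrial-encoded members took 5.08% of UMIs and the nuclear members 2.70%. Tumour cells stood highest in mitochondrial-encoded members, T cells and tumour cells in nuclear ones, and the neutrophil-like MDSC clusters lowest in nuclear ones. Tumour cells gave 5.26% of their UMIs to the mitochondrial-encoded members (interval 5.25 to 5.26%) and 2.75% to the nuclear ones (2.74 to 2.75%). Macrophages gave 4.54% and 2.55%. CD4 and CD8 T cells gave 3.69% and 2.83%. The DC cluster gave 4.05% and 2.54%. MDSC_1 to MDSC_4 gave 3.41% (3.37 to 3.45%) and 1.30% (1.27 to 1.32%). Nuclear UMIs per mitochondrial-encoded UMI were thus 0.523 in tumour cells, 0.561 in macrophages, 0.767 in T cells, 0.627 in the DC cluster and 0.380 in MDSC_1 to MDSC_4. Set against tumour cells, the mitochondrial-encoded share was 0.649 times as large in MDSC_1 to MDSC_4 and the nuclear share 0.472 times. In T cells the mitochondrial-encoded share was 0.701 times the tumour value and the nuclear share 1.03 times, and the latter lay just under 1, at 0.954, with clusters weighted alike.

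**Figure D1:**
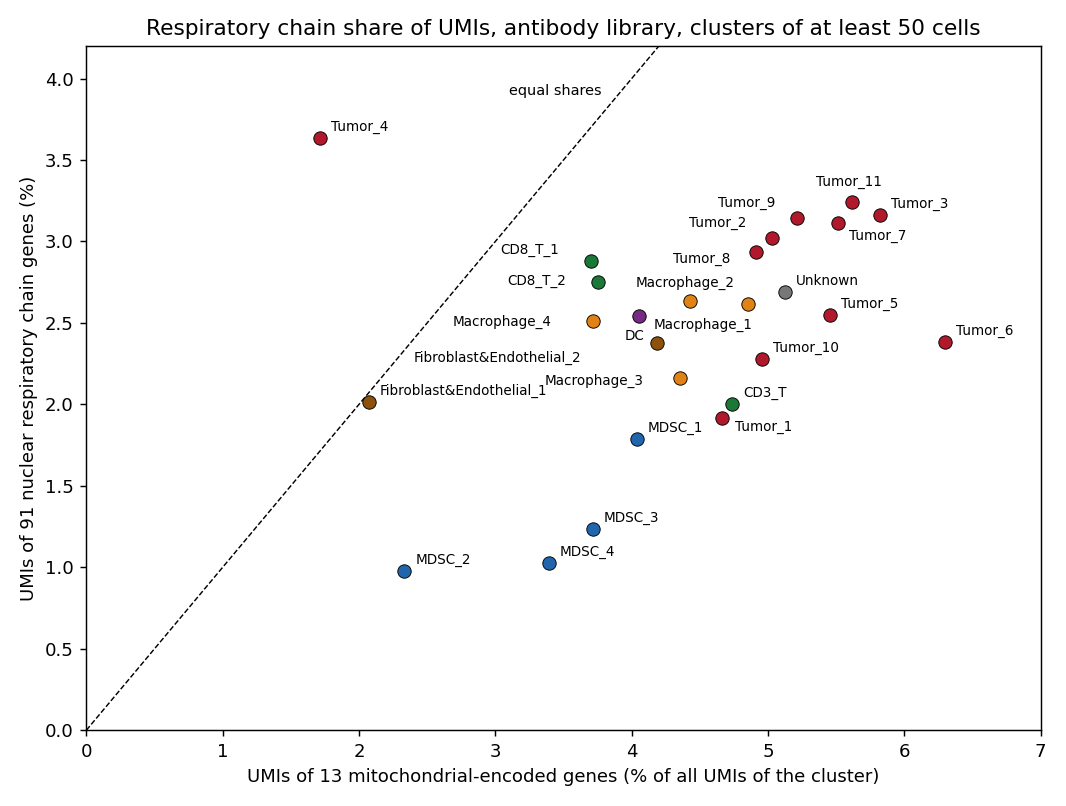
Each point is 1 of the 26 clusters of at least 50 cells in the antibody library, with the percentage of UMIs from the 13 mitochondrial-encoded genes on the x axis and from the 91 nuclear genes on the y axis; the dashed line marks equal shares. Tumor_4 stands alone above the line at 3.63% nuclear and 1.71% mitochondrial-encoded, Fibroblast&Endothelial_1 lies just under it, and the 4 MDSC clusters (blue) lie lowest, with nuclear shares of 0.977 to 1.79%; colours are red for tumour, orange for macrophage, green for T, purple for DC, brown for stromal and grey for Unknown clusters.

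Across the 26 clusters the mitochondrial-encoded and the nuclear members varied, and not in step. The mitochondrial-encoded share ran from 1.71% in Tumor_4 to 6.30% in Tumor_6, and the nuclear share from 0.977% in MDSC_2 to 3.63% in Tumor_4. Spearman's rho between both shares was 0.45. The clusters share 1 library and differ in depth, which had a rho of 0.78 with the mitochondrial-encoded and 0.60 with the nuclear share. Among the 11 tumour clusters the rho between both shares was 0.14. Within many clusters, cells with more of one share had less of the other. Among the strongest, rho was -0.53 over the 412 cells of Tumor_3, -0.50 over the 208 cells of CD8_T_1 and -0.57 over the 105 cells of Macrophage_4. The rho was weaker in Tumor_1 (-0.16), the DC cluster (-0.11) and the 245 cells of MDSC_1 (-0.04), and positive in MDSC_2 (0.19) and MDSC_4 (0.08). Both shares come from the same total, so part of such a relation is set by the arithmetic. Adipocyte (2 cells), B (18), MDSC_5 (37) and CD4_T (47) were under the minimum of 50 cells, and MDSC_5 stood at 5.36% mitochondrial-encoded and 2.53% nuclear UMIs. The 2 Adipocyte cells held 50 mitochondrial-encoded UMIs, or 0.228%, and 4.12% nuclear UMIs.

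The most counted members of complexes I, III, IV and V mostly had their lowest level in an MDSC cluster, and those of complex II their highest in Macrophage_1. For complex I, Ndufb9 ranged from 178 CPM in CD3_T to 894 CPM in Tumor_11, Ndufa7 from 230.1 CPM in Macrophage_3 to 554 CPM in Tumor_4, and Ndufa2 from 124 CPM in MDSC_2 to 542 CPM in Tumor_4. For complex III, Uqcrh, the hinge subunit, ranged from 202 CPM in MDSC_4 to 916 CPM in CD8_T_2, Uqcr10 from 90.6 CPM in MDSC_2 to 650.2 CPM in Tumor_4, and Uqcrq from 215 CPM in MDSC_2 to 747 CPM in Tumor_11. For complex IV, Cox6c ranged from 253 CPM in MDSC_2 to 1651 CPM in Tumor_4 and Cox7c from 176 CPM in MDSC_4 to 1263 CPM in Tumor_4. For complex V, Atp5e, the epsilon subunit, ranged from 334 CPM in MDSC_2 to 1101 CPM in Tumor_4 and Atp5j2 from 164 CPM in MDSC_4 to 953 CPM in Tumor_4. An MDSC cluster was thus lowest for 8 of these 10 genes; the exceptions are Ndufb9 and Ndufa7. For complex II, Sdha ranged from 37.5 CPM in CD3_T to 132 CPM in Macrophage_1, Sdhc from 14.3 CPM in MDSC_2 to 129 CPM in Macrophage_1, and Sdhb from 25.2 CPM in MDSC_4 to 169 CPM in Macrophage_1. These are levels of captured 3' ends of each gene across clusters, and levels of different genes are not ranked here.

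Set against tumour cells, MDSC_1 to MDSC_4 had low levels of most nuclear members of complexes I, III, IV and V, and less so of complex II. The smaller difference for complex II depends on that reference. Its summed level was 177 CPM in MDSC_1 to MDSC_4, 263 CPM in tumour cells and 441 CPM in macrophages. For complex III the sums were 1063, 2710 and 2631 CPM in the same order. A member was counted where its mean over both groups reached 50 CPM, and as higher or lower where levels differed at least 1.5-fold. Of 75 nuclear members that passed the filter, 59 were lower and 3 higher than in tumour cells, with a median fold of 0.374. Among all 2624 genes past the same filter 43.5% were lower and 38.6% higher, with a median fold of 0.862. By complex, 5 of 6 core genes of complex I were lower, 23 of 29 supernumerary genes, 8 of 8 genes of complex III, 9 of 12 of complex IV and 13 of 17 of complex V, but 1 of 3 of complex II. Of the complex I assembly genes 0 of 8 passed the filter. Setting the median fold of all genes to 1 left 54 nuclear members lower, and the share of all genes was not computed there. Of the 12 mitochondrial-encoded members past the filter, 6 were lower and 0 higher: mt-Nd1 (0.547, or 2451 against 4477 CPM), mt-Cytb (0.560), mt-Nd4 (0.617), mt-Co1 (0.625), mt-Co2 (0.631) and mt-Nd2 (0.636). The other 6 had folds of 0.697 for mt-Atp6 to 0.817 for mt-Nd5.

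Of 5 members given here as examples, Ndufa4 and Ndufa5 were among the lowest, while Uqcr10 and Cox4i1 lay near the median fold of 0.374. Ndufa4, first assigned to complex I and now placed in complex IV, stood at 102, 100.2, 97.4 and 88.1 CPM in MDSC_1, MDSC_2, MDSC_3 and MDSC_4. In the 11 tumour clusters it ranged from 195 to 865 CPM with a median of 776, so the ranges do not overlap. The fold was 0.157 (0.125 to 0.195). Ndufa5, an accessory subunit of the peripheral arm, had a fold of 0.173 (0.111 to 0.257). Atp5b, the catalytic beta subunit of ATP synthase, ranged from 200.3 to 335 CPM in the MDSC clusters and from 587 to 1254 CPM in the tumour clusters, with a fold of 0.272 (0.237 to 0.310). Cox4i1, the main form of complex IV subunit 4, stood at 756, 415, 496 and 453 CPM against 1265 to 1875 CPM, with a fold of 0.397 (0.361 to 0.435). Uqcr10, a small subunit of complex III, had a fold of 0.372 (0.312 to 0.439).

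Of complex II, Sdhb, its iron-sulphur subunit, was at 63.7 CPM in MDSC_1 to MDSC_4 and 53.6 CPM in tumour cells, and its interval of 0.890 to 1.55 includes 1. Sdha, the flavoprotein, had a fold of 0.680 (0.504 to 0.897) and Sdhc, a membrane anchor, one of 0.384 (0.253 to 0.559). Sdhd did not pass the filter.

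The 3 members higher in MDSC_1 to MDSC_4 were Ndufb1-ps, Cox8a and Atp5l. Cox8a, the ubiquitous form of the smallest complex IV subunit, stood at 1803, 949, 1404 and 1045 CPM in MDSC_1 to MDSC_4 against 584 to 1120 CPM in the tumour clusters. The ranges overlap, and the fold of the sums was 1.64 (1.55 to 1.74). Ndufb1-ps stood at 622, 339, 447 and 264 CPM in these clusters, with a fold of 1.98 (1.78 to 2.19). Atp5l, subunit g of ATP synthase, ranged from 523 to 654 CPM against 293 to 518 CPM in the tumour clusters, so here the ranges do not overlap, and the fold was 1.55 (1.41 to 1.69). MDSC_1 was the highest of the 4 clusters for each of these 3 genes.

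The 10 nuclear members with the widest range over clusters, among those with a mean of at least 50 CPM, are all complex I genes. They are Ndufa5, Ndufb5, Ndufc1, the assembly factor Ndufaf8, Ndufb2, Ndufab1, Ndufa12, Ndufb11, Ndufc2 and Ndufa10. Complex I has 7 core, 30 supernumerary and 8 assembly genes among the 91 nuclear members. Each of the 10 had its lowest level in an MDSC cluster. The ranking favours genes with few counts in clusters of few UMIs, so that place is partly set by the ranking. The ratio of highest to lowest cluster ran from 14.0 for Ndufa10 to 21.7 for Ndufa5. The low ends rest on few counts: Ndufa5 stood at 12.6 CPM in MDSC_4, against 273 CPM in Tumor_4. Ndufaf8 stood at 4.77 CPM in MDSC_2, against 89.7 CPM in CD8_T_1. Ndufab1, the mitochondrial acyl carrier protein, which also serves fatty acid synthesis, ran from 18.9 CPM in MDSC_4 to 322 CPM in Tumor_4.

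Other values moved with the class. Cytosolic ribosomal protein genes took 6.09% of UMIs in MDSC_1 to MDSC_4 and 32.0% in tumour cells. With mitochondrial-encoded and ribosomal UMIs left out of the total, the nuclear share was 0.327 times the tumour value instead of 0.472. Only 50 of the 707 cells had at least 2000 UMIs, and in those the nuclear share was 0.439 times and the mitochondrial-encoded share 0.775 times that of tumour cells of the same minimum. The part of the hepatoma marker UMIs, given above, and of the depth in these levels was not tested.

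Macrophages, T cells and the DC cluster held most nuclear members near the tumour level and a small set above it. All are set against the same tumour cells, so their folds share that reference. Of 77 members past the filter, 8 were higher and 13 lower in macrophages, where 30.8% of all genes were higher and 28.2% lower. In T cells 13 of 78 were higher and 7 lower, against 32.5% and 24.7% of all genes. With the median fold of all genes set to 1 the T cell counts were 8 higher and 10 lower. In the DC cluster 8 of 77 were higher and 13 lower, against 30.3% and 32.6%, and with the median set to 1, 10 were higher and 7 lower. With the median left as it was, in each of these 3 classes and in both directions a smaller share of the members than of all genes passed the fold.

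Sdhb, Ndufa1, Ndufa3, Ndufb7, Ndufb1-ps, Atp5k and Atp5l were higher in all 3 classes. Cox5a was added in macrophages, Ndufb4 in the DC cluster and, in T cells, Ndufb4, Ndufa12, Uqcrc1, Atp5h, Atp5j and Atp5o. Of the 13 higher members in T cells 5 belong to complex V, where 0 of 17 were lower. Among all genes 32.5% were higher and 24.7% lower, so the 5 of 17 that were higher lie near the background. Among nuclear members past the filter, Sdhb had the largest fold in each of these 3 classes. It stood at 169, 146, 119 and 106 CPM in Macrophage_1 to Macrophage_4, 166 CPM in CD8_T_1, 163 CPM in CD8_T_2 and 131 CPM in the DC cluster. In the 11 tumour clusters it ranged from 26.8 to 80.4 CPM, below all of these. The fold was 2.78 (2.54 to 3.04) in macrophages and 3.00 (2.67 to 3.36) in T cells. Ndufa1, a small membrane subunit of complex I, had folds of 2.01 (1.85 to 2.18) and 2.20 (1.98 to 2.44). Ndufb7 stood at 559 CPM in CD8_T_1 and 510.2 CPM in CD8_T_2 against 88.6 to 259.7 CPM in the tumour clusters. Its fold was 2.96 (2.78 to 3.15) in T cells and 1.56 (1.47 to 1.66) in macrophages. Atp5k, subunit e of ATP synthase, had folds of 2.26 in T cells and 1.93 in macrophages. Cox5a, a complex IV subunit, passed the fold in macrophages alone of these classes, at 1.79 (1.73 to 1.86).

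Ndufb9, Ndufa7 and Ndufv1, the flavoprotein that receives electrons from NADH, were among the members lower in all 3 classes. Ndufb9, an accessory subunit of complex I, had a fold of 0.442 in macrophages and 0.501 in T cells. Of the mitochondrial-encoded members, 3 of 12 were lower in macrophages (mt-Nd2, mt-Nd4l and mt-Atp8), 4 of 12 in T cells and 4 of 12 in the DC cluster (in both mt-Nd1, mt-Nd2, mt-Nd4l and mt-Cytb), and 0 were higher. Beside the 28.2%, 24.7% and 32.6% of all genes lower in these classes, the counts of lower members are near the background. mt-Nd2, a membrane subunit of complex I, was lower in both macrophages (2240 against 4000 CPM, fold 0.560) and T cells (1962 CPM, fold 0.491). The mitochondrial-encoded complex IV messages did not reach the fold: mt-Co1 stood at 7164 CPM in macrophages, 4985 CPM in T cells and 6666 CPM in tumour cells.

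CD3_T held 3 members higher (Ndufb7, Ndufa3 and Atp5h) and 34 lower of 77, against 29.3% and 36.2% of all genes. Its nuclear share was 2.00% and its mitochondrial-encoded share 4.74%. The 26 of its 138 cells with at least 2000 UMIs had a nuclear to mitochondrial ratio above that of tumour cells, at 1.12 times, whereas over all its cells the value was 0.808 times.

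**Figure D2:**
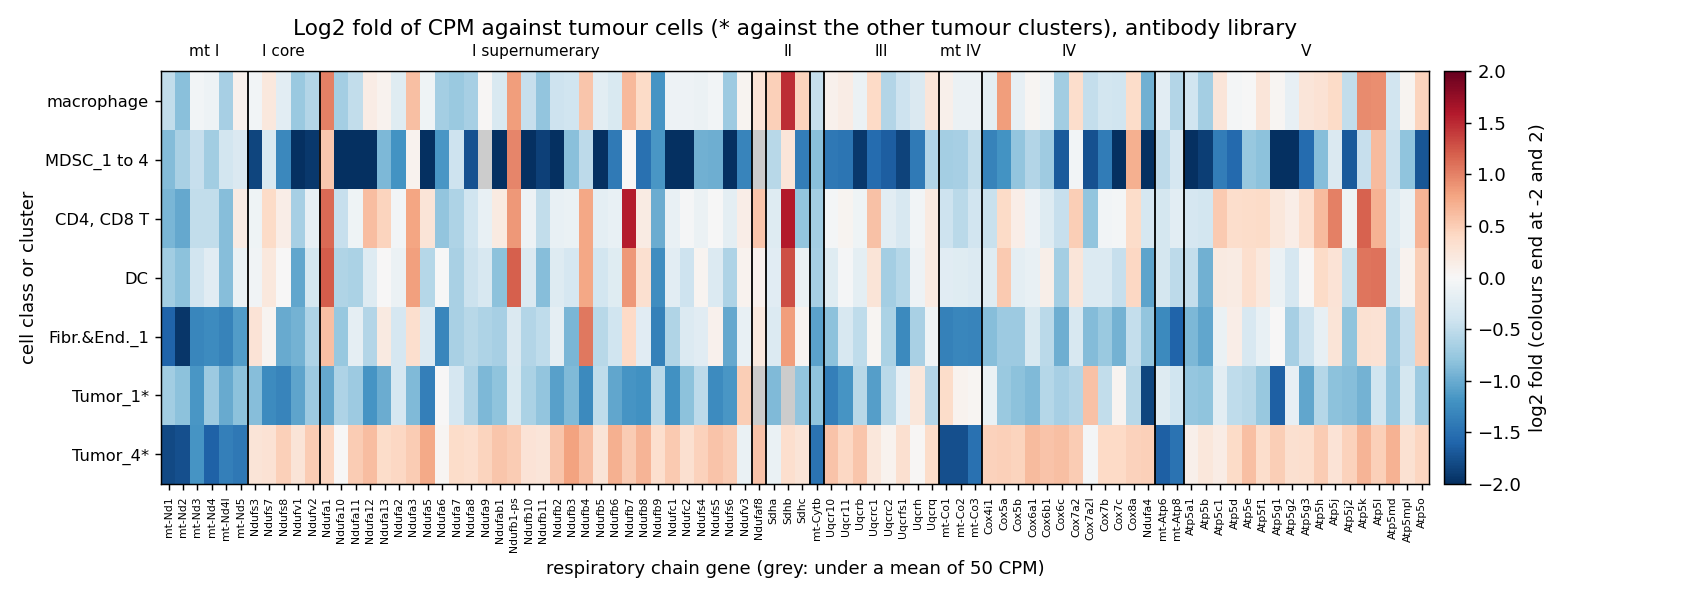
Each column is one of the members past the filter in at least 5 of the 7 comparisons, ordered by complex, and colour gives the log2 fold of CPM against tumour cells or, with an asterisk, against the other tumour clusters (antibody library; red higher, blue lower, grey not past the filter). The MDSC row is blue in most columns, with Cox8a, Ndufb1-ps and Atp5l among the few red ones; Sdhb is red in macrophages, T cells and DC; the Tumor_4 row is blue in the mitochondrial-encoded blocks and pale red elsewhere.

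Among tumour clusters, Tumor_1 held the smallest nuclear share, 1.92%, and its mitochondrial-encoded messages were uneven. Of 75 nuclear members past the filter, 49 were lower and 1 higher than in the other tumour clusters, with a median fold of 0.587. Of all genes 30.8% were lower and 10.1% higher, with a median fold of 0.854. With that median set to 1, 32 members were lower and 2 higher, and the share of all genes was not computed there. By complex, 6 of 6 core and 22 of 30 supernumerary genes of complex I were lower, 2 of 2 of complex II, 4 of 8 of complex III, 5 of 12 of complex IV and 10 of 17 of complex V. Ndufa4 stood at 195 CPM in Tumor_1 against 697 CPM in the other tumour cells, a fold of 0.280 (0.267 to 0.294). Atp5g1, a gene for the c ring of ATP synthase, had a fold of 0.324 (0.307 to 0.340), and Uqcr10 one of 0.390 (0.371 to 0.409). Not all members moved: Cox4i1 had a fold of 0.909 (0.891 to 0.927) and Cox7c, a small complex IV subunit, one of 1.04 (1.02 to 1.06). Cox7a2l, which links complexes III and IV into supercomplexes, was the single member above the fold, at 587 against 389 CPM (1.51, 1.46 to 1.55). It fell just short once mitochondrial-encoded UMIs were left out of the total.

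In Tumor_1 the messages from mitochondrial DNA divided by complex. The 6 complex I messages past the filter were all lower, with folds of 0.445 for mt-Nd3, 0.496 for mt-Nd4l, 0.568 for mt-Nd2, 0.569 for mt-Nd5, 0.601 for mt-Nd4 and 0.620 for mt-Nd1. mt-Cytb, of complex III, had a fold of 0.573. The complex IV messages did not reach the fold in either direction: mt-Co1 was at 8272 against 6392 CPM (1.29), mt-Co2 at 1.05 and mt-Co3 at 1.02. mt-Atp6 had a fold of 0.838 and mt-Atp8 one of 0.756; these genes overlap on 1 message, as do mt-Nd4l and mt-Nd4, so how UMIs split within each pair is uncertain. mt-Nd6, the only member on the light strand, was at 23.7 CPM and did not pass the filter. Complex I UMIs per complex IV UMI were 0.291 in Tumor_1 and 0.548 in the tumour clusters other than Tumor_1 and Tumor_4. Among clusters of at least 50 cells that ratio ran up to 0.683 in Tumor_11. It was 0.473 in MDSC_1 to MDSC_4, 0.407 in CD4 and CD8 T cells, 0.386 in macrophages and 0.345 in CD3_T.

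The tumour clusters with more UMIs of a glycolysis and hypoxia list had a smaller nuclear share. This list holds 17 genes, such as the glucose transporter Slc2a1 and the hypoxia-induced genes Bnip3, Ndrg1 and Vegfa. Its summed level was 18549 CPM in Tumor_1, 13595 CPM in Tumor_10, 11066 CPM in Tumor_6 and 10088 CPM in Tumor_5, and these 4 clusters had the lowest nuclear shares, 1.92%, 2.28%, 2.38% and 2.55%. The other 7 clusters held 6285 to 8107 CPM of the list and nuclear shares of 2.94 to 3.63%. Across the 11 clusters, which share 1 library, Spearman's rho was -0.90 (Pearson's r -0.92), and without Tumor_1 it was -0.87. The ratio of mitochondrial-encoded complex I to complex IV UMIs had a rho of -0.77 with the list, and -0.92 without Tumor_4. The mitochondrial-encoded share as a whole had a rho of -0.30, and -0.54 without Tumor_4. In Tumor_1 itself 12 of the 15 list genes past the filter were higher and 0 lower, with Slc2a1 at 403 against 73.2 CPM and Bnip3 at 968 against 166 CPM. Ribosomal protein genes were also highest in Tumor_1, at 38.4% of UMIs against 27.6 to 34.1% in the other tumour clusters. All are shares of the same total, and the part of the ribosomal share in the relation was not tested. The correlation was chosen after values were seen.

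**Figure D3:**
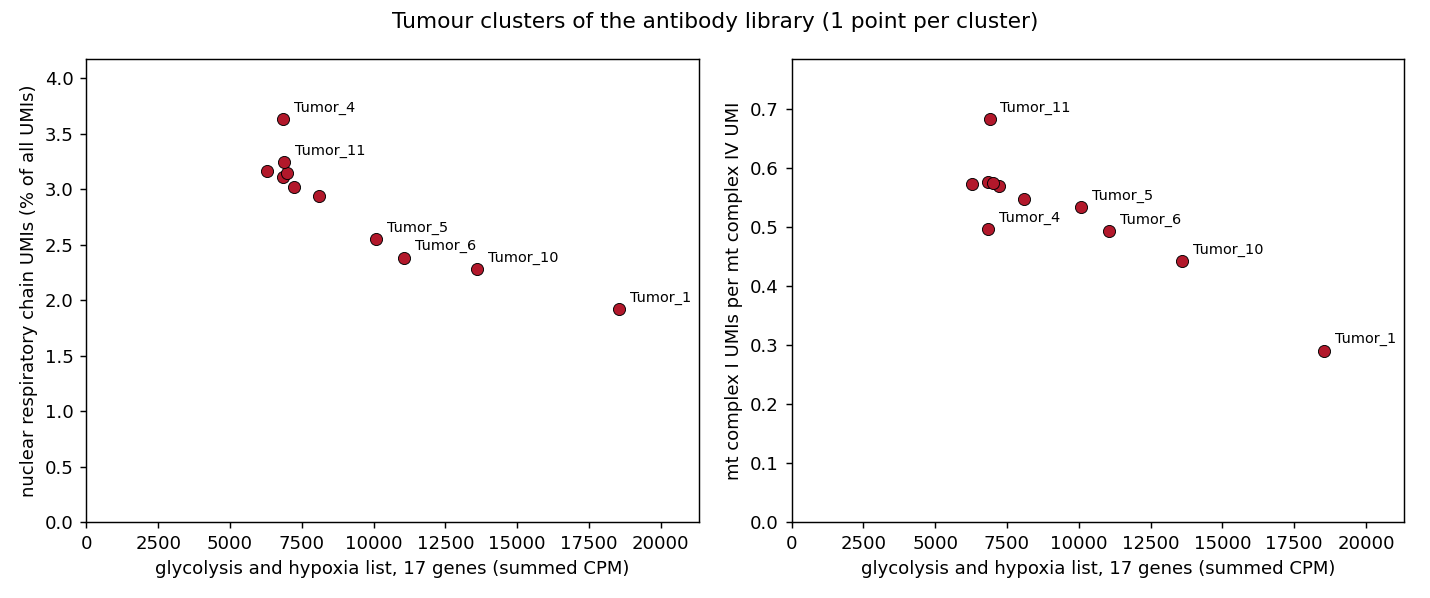
Each point is 1 of the 11 tumour clusters of the antibody library; the x axis gives the summed CPM of the 17 genes of the glycolysis and hypoxia list, and the y axes the nuclear respiratory chain percentage (left) and the UMIs of mitochondrial-encoded complex I per UMI of mitochondrial-encoded complex IV (right). Tumor_1, at 18549 CPM, has the lowest value in both panels, and Tumor_4 has the highest nuclear share, 3.63%, at 6847 CPM.

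Tumor_4 had the opposite balance, with many nuclear and few mitochondrial-encoded UMIs. All 12 mitochondrial-encoded members past the filter were lower than in the other tumour clusters, with folds from 0.288 for mt-Nd1 to 0.443 for mt-Nd3, where 15% of all genes were lower. Of 80 nuclear members 12 were higher and 0 lower, against 7.37% of all genes higher: Ndufb3, Ndufa5, Ndufb6, Ndufb8, Ndufb4, Ndufa12 and the assembly factor Ndufaf2 of complex I, Cox6a1 and Cox6c of complex IV, and Atp5md, Atp5k and Atp5e of complex V. Ndufb3, an accessory subunit of complex I, was at 306 against 175 CPM (fold 1.75, 1.56 to 1.94), and Cox6c, of complex IV, at 1651 against 1083 CPM (1.52, 1.46 to 1.60). With mitochondrial-encoded UMIs left out of the total, 7 nuclear members were higher, and also 7 with the median fold of all genes set to 1. The share of all genes was not computed in either case. The 12 of 80 can thus be set against the 7.37% only without these changes. The cluster was shallow, with a median of 2483 UMIs. Among cells of 1000 to 5000 UMIs, the 182 cells of Tumor_4 held 1.14% mitochondrial-encoded and 3.47% nuclear UMIs, and the 54 cells of the other tumour clusters 4.48% and 2.56%. The median cell of that range held 0.964% mitochondrial-encoded UMIs in Tumor_4 and 1.78% in the other tumour clusters, a smaller gap than that of the sums. Its 70 cells over 5000 UMIs held 2.03% and 3.78%, and their median cell 0.547% mitochondrial-encoded UMIs, against 5.14% for the median of 2869 such cells in the other tumour clusters.

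Stromal cells differed between the pair of clusters named Fibroblast&Endothelial. In cluster 1, with fibroblast markers at 34540 CPM and endothelial markers at 2.67 CPM, all 12 mitochondrial-encoded members past the filter were lower than in tumour cells, and 31 of 79 nuclear members were lower and 4 higher, against 25.4% and 32.7% of all genes. The mitochondrial-encoded folds ran from 0.259 for mt-Nd2 to 0.478 for mt-Cytb. Its mitochondrial-encoded share was 2.07% and its nuclear share 2.01%. Cluster 2, with fibroblast markers at 8385 CPM, pericyte markers at 1504 CPM, endothelial markers at 800.0 CPM and hepatoma markers at 5420 CPM, held 4.19% and 2.37%, with 11 of 81 nuclear members lower and 4 higher, against 18.6% and 21.5%. Sdhb and Ndufa1 were higher in both clusters, Ndufb4 in cluster 1, and the rest are the isoform genes described next, which passed the filter through their level in these clusters.

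The stromal clusters also carried alternative subunits: Ndufa4l2 at levels not reached in other clusters of at least 50 cells, and Cox4i2, which macrophages held too. Ndufa4l2 is a hypoxia-inducible paralog of Ndufa4, and Cox4i2 an alternative form of Cox4i1 linked to oxygen sensing. Ndufa4l2 had 509 UMIs in 53 of the 96 cells of Fibroblast&Endothelial_1 (453 CPM, 414 to 494) and 92 UMIs in 18 of the 54 cells of Fibroblast&Endothelial_2 (285 CPM, 230 to 350). The 3213 tumour cells held 7 UMIs in 6 cells. Median depths were 10856, 2771.5 and 20428 UMIs in the same order. Cox4i2 had 47 UMIs in 13 cells of Fibroblast&Endothelial_2 (146 CPM, 107 to 194) and 21 UMIs in 9 cells of Fibroblast&Endothelial_1 (18.7 CPM). It was also seen in macrophages, with 44 UMIs in 30 of 178 cells of Macrophage_1 and 53 UMIs in 29 of 158 cells of Macrophage_2 (30.9 and 30.3 CPM), but in Macrophage_3 at 5.04 CPM.

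Within Fibroblast&Endothelial_2 both alternative subunits lay in cells with a UMI of a pericyte marker (Rgs5, Kcnj8, Abcc9 or Notch3), a split made after the values were seen. The 20 such cells held 46 of the 47 Cox4i2 UMIs and 86 of the 92 Ndufa4l2 UMIs. The 9 cells with an endothelial but no pericyte UMI held 0 of either in 64780 UMIs, which allows up to 46.3 CPM, and the 25 cells with neither held 1 and 6. Their median depths were 6746, 2827 and 995 UMIs. In Fibroblast&Endothelial_1, by contrast, the 81 cells with neither kind of marker held 436 of the 509 Ndufa4l2 UMIs and 18 of the 21 Cox4i2 UMIs. The 12 cells of that cluster with a pericyte UMI held 0 Cox4i2 UMIs in 144246 UMIs, which allows up to 20.8 CPM. The main forms differed in the pericyte-marker cells of Fibroblast&Endothelial_2. Cox4i1 stood at 893 CPM, against 1266 CPM in the cells with only an endothelial marker and 1235 CPM in those with neither. Ndufa4 stood at 154 CPM, from 24 UMIs, against 710.1 CPM (46 UMIs) and, in the cells with neither, 51 UMIs in 101996.

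**Figure D4:**
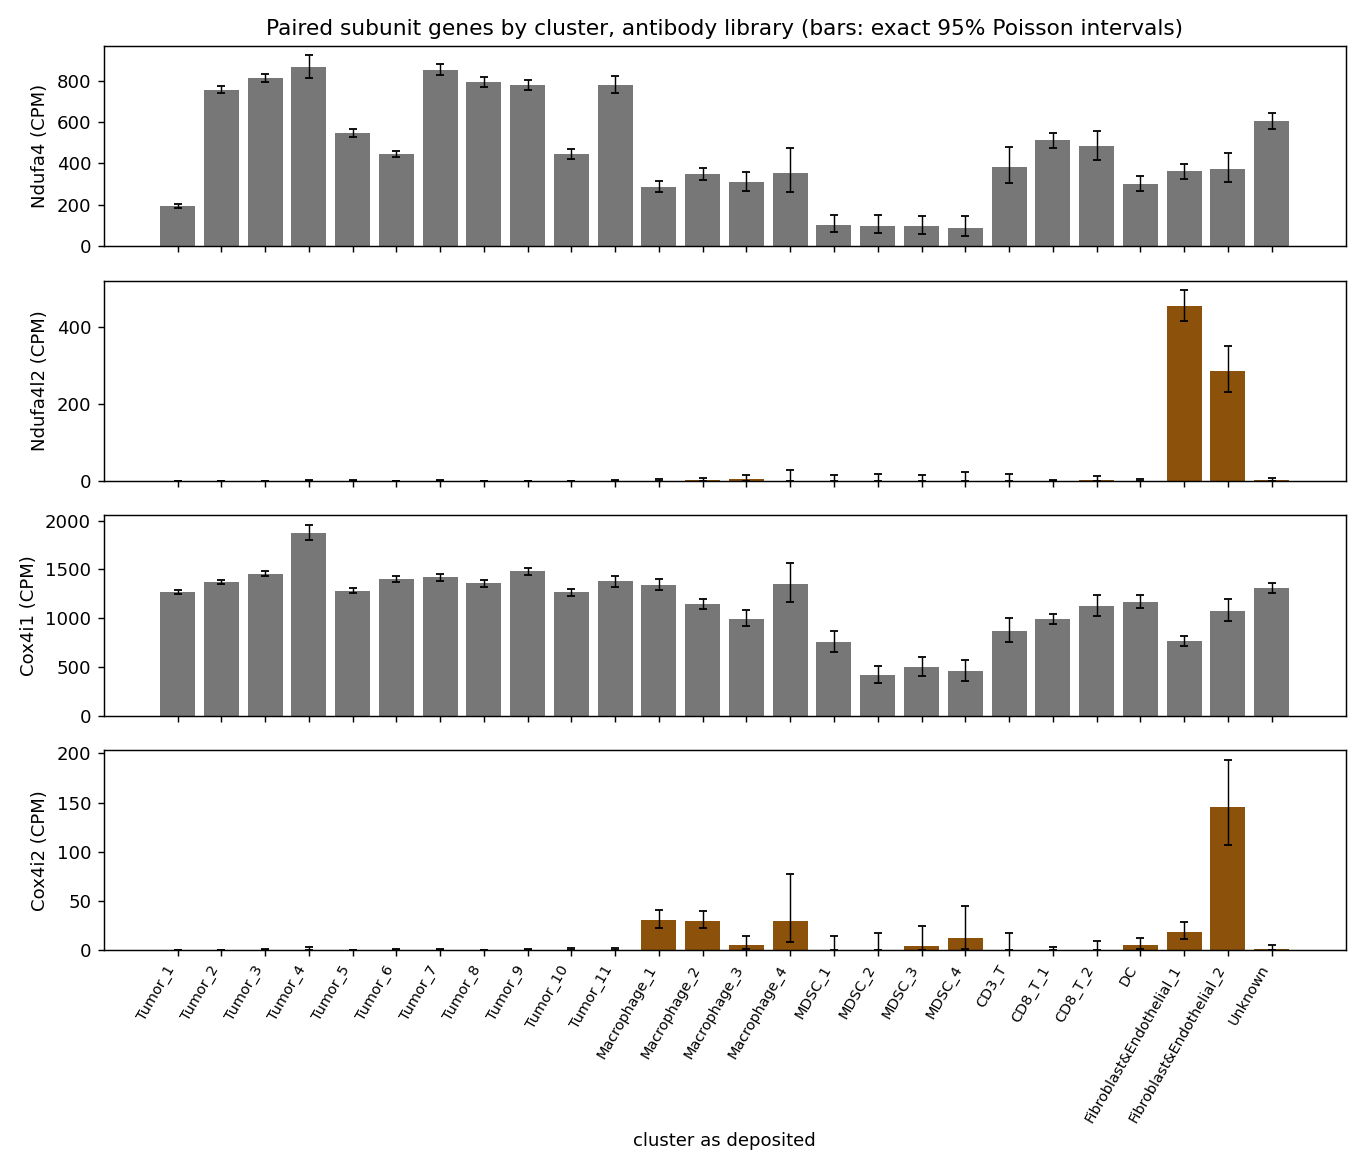
Bars give the CPM of Ndufa4, Ndufa4l2, Cox4i1 and Cox4i2 in each cluster of the antibody library with at least 50 cells, and whiskers the exact 95% Poisson interval. Ndufa4l2 stands at 453 and 285 CPM in the 2 Fibroblast&Endothelial clusters and Cox4i2 at 146 CPM in the second of them, while Ndufa4 is lowest in the 4 MDSC clusters.

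Muscle forms of complex IV subunits were rare. Cox7a1 reached 25.2 CPM in Tumor_11, where its ubiquitous partner Cox7a2 stood at 373 CPM, and lay between 7.19 and 16.7 CPM in the other tumour clusters and Unknown. Cox6a2 reached 90.7 CPM in Macrophage_4, but all 12 UMIs came from 1 of its 105 cells. Cox6b2, a testis form, was at most 8.01 CPM, in Fibroblast&Endothelial_1, among clusters of at least 50 cells. Their partners Cox6a1 and Cox6b1 were found in all of these clusters, at 172 to 604 CPM and 290 to 946 CPM.

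Genes outside the symbol rule followed the members in part. A list of 37 assembly factors and electron carriers had 10 genes past the filter in MDSC_1 to MDSC_4, with 7 lower and 1 higher. Cyc1, the cytochrome c1 of complex III, had a fold of 0.189, and Cycs, cytochrome c, one of 0.428. The higher gene was Cox17, a copper chaperone for complex IV, at 929 against 92.7 CPM, a fold of 10.0. Of 13 citric acid cycle genes 4 passed the filter, and Fh1 (0.115), Suclg1 (0.220) and Idh3g (0.254) were lower. Of 19 regulators of mitochondrial transcription and biogenesis 3 passed the filter, and Ssbp1 and Slirp were lower. Of the 17 genes of the glycolysis and hypoxia list 15 passed it in MDSC_1 to MDSC_4. Of these 7 were lower, such as Ldha (0.380), and 1 higher, Slc2a1 (1.90). Beside the 43.5% of all genes that were lower, 7 of 15 is near the background. In Tumor_1, 6 of 11 assembly and carrier genes were lower and Higd1a, a hypoxia-inducible gene, was higher at 643 against 195 CPM. The regulator list had 2 of 3 lower and the citric acid cycle list 3 of 6. In T cells 4 of 13 assembly and carrier genes were higher and 2 lower, against 32.5% and 24.7% of all genes. In Tumor_1 30.8% of all genes were lower, and in MDSC_1 to MDSC_4 43.5%.

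Between libraries, Cox5b was higher in tumour cells of the antibody library. It stood at 653 CPM (40812 UMIs, 646 to 659) against 571 CPM in the IgG library (44761 UMIs, 566 to 576), a ratio of 1.14 (1.13 to 1.16). Of the 16 shared genes with at least 50 CPM in tumour cells, 43.8% had an interval above 1 and 25% one below, and their median ratio was 1.02. With that median set to 1 the Cox5b ratio was 1.12. The ratio was above 1 in 11 of 11 tumour clusters, with an interval above 1 in 10. It ran from 1.03 (0.979 to 1.07) in Tumor_8 to 1.22 (1.12 to 1.32) in Tumor_4. The median ratio of the shared genes ran from 0.959 in Tumor_7, where Cox5b stood at 1.09, to 1.12 in Tumor_11, where Cox5b stood at 1.14. All clusters come from the same pair of libraries, so they are not replicates of the treatment, and the library and the treatment cannot be told apart.

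Other cell types gave smaller or less certain ratios. Macrophages stood at 581 against 529 CPM, a ratio of 1.10 (1.03 to 1.18), where 6.67% of 15 shared genes had an interval above 1 and 20% one below. MDSC_1 to MDSC_4 stood at 389 against 287 CPM, a ratio of 1.36 (1.07 to 1.73) that rests on 319 and 93 UMIs. There 33.3% of 12 shared genes had an interval above 1 and 8.33% one below, and their median ratio was 1.30. With that median set to 1 the Cox5b ratio was 1.05, and with MDSC_5 put back it was 1.05 as well; with at least 2000 UMIs per cell it was 1.77. The interval included 1 in T cells (0.975, 0.894 to 1.06), where 7.14% of 14 shared genes lay above and 14.3% below, and in the DC cluster (0.936, 0.815 to 1.08), where 6.25% of 16 lay above and 12.5% below. Outside tumour cells 12 of 16 clusters with at least 30 cells in each library had a ratio above 1, and in 2 of them, MDSC_1 (1.61, 1.08 to 2.46) and Macrophage_1 (1.14, 1.01 to 1.29), the interval lay above it. The MDSC_1 ratio rests on 133 and 31 UMIs, and the median ratio of the 17 shared genes there was 1.53. In Macrophage_1 the median over 18 shared genes was 0.929.

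The order of Cox5b over clusters was alike in both libraries. Over cells with a recovered depth it was lowest in MDSC_2, at 225 CPM in the IgG and 235 CPM in the antibody library, and in Tumor_1 at 345 and 396 CPM it was the lowest of the tumour clusters. Across the 27 clusters with at least 30 cells in each library, which share cluster names and the counting, Spearman's rho of Cox5b between libraries was 0.95. In the antibody library Cox5b followed the remaining nuclear members, with a rho of 0.97 over 26 clusters. The pathway list had 2 more genes in the IgG copy. In tumour cells the antibody to IgG ratio of Sdhaf4, an assembly factor of complex II, was 0.957 (0.901 to 1.02). For Tmem70, an assembly factor of ATP synthase, it was 1.05 (0.997 to 1.10), and both intervals include 1.

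**Figure D5:**
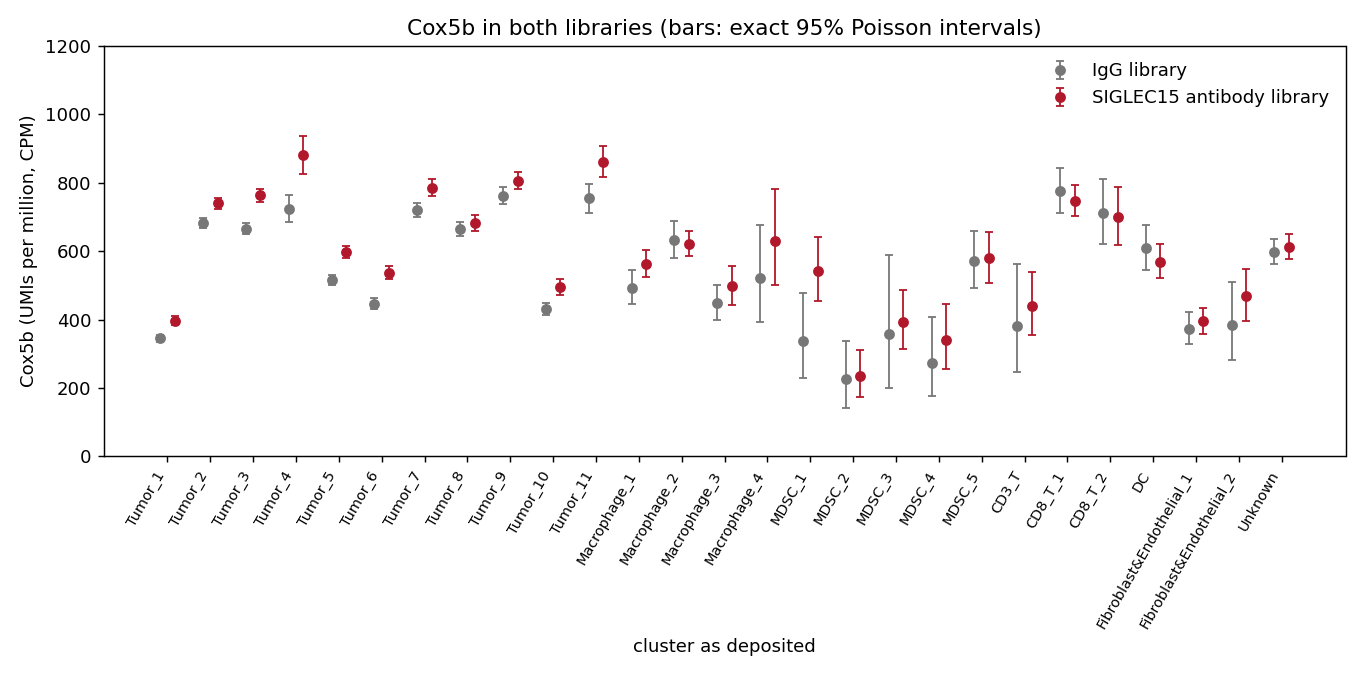
Points give the CPM of Cox5b in each cluster with at least 30 cells in both libraries, grey for IgG and red for the SIGLEC15 antibody, and bars the exact 95% Poisson interval. The red point lies above the grey one in all 11 tumour clusters, with the largest ratio in Tumor_4 at 880 against 723 CPM, and both libraries have low values in MDSC_2 and Tumor_1.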

How the data were processed

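Cells of 1 IgG and 1 antibody library were counted with the 10x 3' v2 chemistry, per the labels' protocols, and the submitters' processing notes name Cell Ranger 2.1.1. No source used here gives the build, the annotation, the cell filter or the clustering method. The highest mitochondrial-encoded share of any antibody cell was 14.97%, in Macrophage_4. The highest cell stood close to it in other clusters, at 14.95% in Tumor_2, 14.88% in MDSC_1 and 14.87% in DC, but at 9.56% in Macrophage_3. Whether cells above some limit of this share had been removed is not stated. Such a limit would bear on all mitochondrial-encoded shares and on the nuclear to mitochondrial ratios. The authors deposited a cluster name per cell and expression values as a natural log. By the values themselves, each is the natural log of 1 plus a gene's UMIs scaled to a total of 10000 per cell. UMI counts were recovered in Python 3.11.15 with numpy 2.4.6, pandas 2.3.3 and scipy 1.17.1. All 15274637 antibody values above 0 were whole UMIs within 0.001 and summed to the depth in 5482 cells. Depths of IgG cells came from the 105 shared genes and had to be at least 500 UMIs. The same step gave the true depth in 5440 antibody cells, another in 8 and none in 34. In comparisons between libraries, cells without such a depth were left out of both. The IgG copy ended inside a gene, and its other genes were not analysed here.

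UMIs were summed per cluster or class and scaled to CPM. Shares have exact Clopper-Pearson intervals, levels exact Poisson intervals and ratios exact conditional ones. Folds used genes with a mean of at least 50 CPM. No p-value was computed. Named members were all mitochondrial-encoded ones, Cox5b, the most counted of each complex, isoform pairs, the 10 with the widest range, and those past the fold against the majority of a class; Atp5g1, Cox17 and others were added after their values were seen. The values of 1 member are not reported here, though counts include it. The members and lists were chosen with earlier results of these data known. Scrublet in scanpy 1.11.5 marked 3 of 5482 cells, or 0.055%, so it did not work here and doublets were kept. Alternatives were UMI minimums, cluster weights, other totals, the fold and the CPM filter. Plots used matplotlib 3.10.9.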

Additional observations from a re-analysis of the deposited data

How the results depend on the processing

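No paired analysis was possible because each group has 1 library. Removal of predicted doublets was not run, since the caller had marked too few cells. The results of MDSC_1 to MDSC_4 against tumour cells stayed on the same side of 1 under the alternatives run. Their mitochondrial-encoded share, 0.649 times that of tumour cells, was 0.665 with at least 1000 UMIs, 0.775 with at least 2000, 0.671 with clusters weighted alike, 0.641 without Tumor_4 and Macrophage_4, 0.770 with MDSC_5 put back (chosen after seeing the data) and 0.469 without ribosomal protein UMIs. The nuclear share, 0.472 times, was 0.456, 0.439 and 0.440 under the first 3 of these, 0.618 with MDSC_5 put back, 0.463 without mitochondrial-encoded UMIs and 0.327 also without ribosomal ones. The nuclear to mitochondrial ratio, 0.728 times, was 0.686, 0.567 and 0.563 under the first 3 and 0.803 with MDSC_5 put back. Their Cox5b ratio moved from 1.36 to 1.05 or 1.77, as given above. Their count of 59 lower members ran from 48 with a fold of 2 to 66 with a filter of 20 CPM. The share of all genes was not computed at those settings.

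Directions turned in 7 alternatives to the shares and ratios. The nuclear share of T cells was 0.954 with clusters weighted alike, 0.955 as a mean over cells and 0.949 without mitochondrial-encoded and ribosomal UMIs. The nuclear to mitochondrial ratio turned with clusters weighted alike in macrophages (0.868), DC (0.944) and Fibroblast&Endothelial_2 (0.851), where Tumor_4 gains weight in the tumour reference, and in CD3_T with at least 2000 UMIs (1.12). The Cox5b ratio in tumour cells, 1.14, was 1.12 both with clusters weighted alike and with the median ratio set to 1. Of 44 alternatives to the Cox5b ratios, 39 stayed inside the interval and 5 moved past it. The shares moved more often. Of 54 alternatives to the mitochondrial-encoded shares 39 moved past the interval. For the nuclear shares 38 of 72 moved past it and 3 turned, and for the nuclear to mitochondrial ratios 20 of 45 and 4. The intervals thus do not cover the choice of setting. Counts of members moved by over 1.5 times in 25 of 108 alternatives. The share of all genes past the fold was not computed under these alternatives. The counts below thus show only how the number of members shifts, without a background. A fold of 2 left 20 lower and 0 higher in Tumor_1, 0 higher in Tumor_4 and in MDSC_1 to MDSC_4, 5 higher and 1 lower in T cells, 5 and 4 in DC, 2 and 2 in macrophages, 0 and 15 in CD3_T, 2 and 7 in Fibroblast&Endothelial_1 and 2 and 0 in Fibroblast&Endothelial_2. With the median fold set to 1, 8 were higher in T cells, 5 in CD3_T and 7 in Tumor_4, and 7 were lower in DC and 32 in Tumor_1. Without mitochondrial-encoded UMIs 0 were higher in Tumor_1 and 7 in Tumor_4, and with at least 2000 UMIs 9 were higher in CD3_T. Few UMIs limit single genes in MDSC clusters, where 3 UMIs stand for 11.8 to 18.9 CPM.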
